A study of Mus musculus with 16 samples.

Results

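The 40 genes described here are expressed when cells copy their DNA and divide, and their RNA was measured in gonadal fat of mice in which brain melanocortin signalling and the vagus nerve were manipulated. They were taken from a given list of S-phase and mitosis genes and matched by symbol, and make up 40 of the 24454 genes counted. By role they comprise 10 genes of S phase and replication, 10 mitotic cyclins, kinases and their regulators, 12 genes of chromosomes, kinetochores and the spindle checkpoint, 7 genes of the spindle and cytokinesis, and the proliferation marker Mki67.

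The mice were lean C57BL/6J males, an inbred laboratory strain, 16 weeks old and kept on chow. Every mouse had had surgery, either a sham operation or subdiaphragmatic vagotomy (sDVX, cutting of the vagus nerve below the diaphragm). Starting 4 weeks later, each received vehicle or SHU9119, a peptide antagonist of melanocortin receptors, into the brain ventricles for 2 weeks, SHU9119 at 1 nmol per day, with calories matched across groups. The 4 groups are called Sham_Veh, Sham_SHU, VX_Veh and VX_SHU, each with 4 libraries of polyadenylated RNA. No label ties a library to an individual mouse, so the p-values rest on the spread between libraries of a group, which may be technical. Whole tissue was sequenced, so fewer cells of a type and less RNA per cell cannot be told apart.

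A dividing cell first licenses its replication origins with the MCM helicase (Mcm2, Mcm3, Mcm5 and Mcm6 are subunits) loaded by Cdc6 and Cdt1, then makes nucleotides (Rrm2, Tyms) and copies DNA behind the sliding clamp Pcna. Cyclin-dependent kinase Cdk1 with cyclins A2, B1 and B2 then drives mitosis, in which kinetochores, the checkpoint kinases and the spindle motors separate the chromosomes. In resting cells a repressor complex called DREAM is known to hold most of these genes silent through promoter elements named E2F sites, used mainly by S-phase genes, and CHR elements, used mainly by mitotic genes, the latter often beside CCAAT boxes. Mature fat cells do not normally divide. Division in fat is known mostly from macrophages, endothelial cells and fat cell progenitors, and in the testis from germ cells, which express many of the same genes for mitosis and meiosis.

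The promoters of 6 genes described below are shown for the CHR, CCAAT and E2F letters they hold. Each stretch is 150 bases long and ends 10 bases past the outermost annotated start, 5′ to 3′ on the gene's strand, from RefSeq (GRCm38.p6). Capitals mark matches on either strand to CHR (the form TTTGAA and the form TTTAAA), to the CCAAT box (the letters CCAAT) and to E2F (the form TTCCCGC, the form TTCGCGC, the form TTGCCGC and the form TTGGCGC). Cdk1, Ccnb1, Prc1 and Top2a act in mitosis, Mki67 is the common marker of cycling cells, and Mcm3 is a subunit of the replicative helicase.
Cdk1: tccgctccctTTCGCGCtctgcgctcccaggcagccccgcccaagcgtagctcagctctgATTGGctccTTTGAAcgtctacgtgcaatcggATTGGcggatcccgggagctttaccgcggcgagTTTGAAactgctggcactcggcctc
Ccnb1: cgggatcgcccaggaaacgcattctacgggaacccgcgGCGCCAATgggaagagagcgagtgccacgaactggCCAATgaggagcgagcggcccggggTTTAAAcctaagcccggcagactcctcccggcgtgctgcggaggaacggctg
Prc1: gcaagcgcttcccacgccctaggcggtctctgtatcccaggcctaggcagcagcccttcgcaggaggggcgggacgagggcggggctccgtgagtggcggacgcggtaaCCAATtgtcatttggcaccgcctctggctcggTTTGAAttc
Top2a: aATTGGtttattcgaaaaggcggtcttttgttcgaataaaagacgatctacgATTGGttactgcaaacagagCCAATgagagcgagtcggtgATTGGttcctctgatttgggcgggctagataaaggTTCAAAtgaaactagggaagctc
Mki67: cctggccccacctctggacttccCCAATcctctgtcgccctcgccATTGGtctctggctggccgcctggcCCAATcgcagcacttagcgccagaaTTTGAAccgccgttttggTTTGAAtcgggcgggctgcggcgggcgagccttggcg
Mcm3: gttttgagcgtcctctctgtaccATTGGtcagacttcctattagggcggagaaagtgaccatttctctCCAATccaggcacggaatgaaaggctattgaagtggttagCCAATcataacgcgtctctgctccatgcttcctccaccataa
The printed stretches lie, in the same order, at chr10:69352903-69353052 (strand -), chr13:100786477-100786626 (strand -), chr7:80294305-80294454 (strand +), chr11:99024190-99024339 (strand -), chr7:135716441-135716590 (strand -) and chr1:20820303-20820452 (strand -). CHR letters were found in 5 of these 6 stretches, all but that of Mcm3. E2F letters were found in those of Cdk1 and Ccnb1 and not in that of Mcm3, which holds 3 CCAAT boxes. In Ccnb1 the E2F match overlaps a CCAAT box. Promoter windows from 250 bases before to 50 bases after a start were given for 34 of the 40 genes, 36 windows in all. CHR letters were in 21 of the 25 windows of the genes outside the S-phase group (84%) and in 4 of the 11 windows of the S-phase genes (36.4%), against 27.6% of all 32851 promoter windows. The E2F letters had the reverse distribution, with 8 of 11 S-phase windows (72.7%), 4 of the other 25 (16%) and 9.57% of all windows. CCAAT was in 30 of the 36 windows (83.3%) and in 37.4% of all. These are letter matches, and binding was not measured. No window was given for Aurkb, Ccna2, Esco2, Foxm1, Kif20a and Tpx2, so their promoters were not searched.

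Library totals ran from 20425295 to 30889052 counts. All 40 genes had counts in every library, between 10 and 1741, and all 40 passed the filter on low counts that left 16682 genes to test. Levels are given as CPM, counts scaled to the library total and by the TMM factors of edgeR. Averaged over the 16 libraries they ran from 1.08 CPM for Cenpi, a kinetochore protein, to 57.3 CPM for Pcna, with a median of 4.91, and 6 genes reached 10 CPM. Per kilobase of transcript, the members stood between the 3.6th and the 89.0th percentile of the genes tested, with a median at the 22.7th. The fat cell markers, led by Fabp4 and including Adipoq and Plin1, summed to between 10591 and 31259 CPM in the 16 libraries, with 8 of 8 detected in each.

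Sham_Veh4 and Sham_SHU3 stood apart from the other libraries. The 13 spermatid markers, led by the protamine gene Prm2, summed to 2883 CPM in Sham_Veh4 and 1399 CPM in Sham_SHU3, against 13.6 to 379.7 CPM in the other 14. The 15 spermatocyte markers summed to 507.1 and 217.4 CPM, against 50.2 to 137.4 CPM. In the other 14 libraries Sycp3 and Rec8 made up most of this sum. Sycp3 was at 43.2 CPM in Sham_Veh3, and Rec8 was at 89.9 CPM in VX_Veh1. Sycp3 was highest of its group in Sham_Veh4 (62.5 CPM) and lowest of its group in Sham_SHU3 (46.1 CPM). Sycp1 was at 40.97 CPM in Sham_Veh4 and 14.5 CPM in Sham_SHU3, and at most 1.20 CPM elsewhere. Piwil1 was at 50.6 and 17.8 CPM, and at most 2.25 CPM elsewhere. No marker of either list was at 0 in every library. The sum of the epididymis markers was highest elsewhere, at 10316 CPM in VX_SHU4 and 9685 CPM in VX_Veh4. Crisp1 (8231 and 7699 CPM) and Adam7 (2004 and 1865 CPM) made up most of it. Lcn6, Lcn8, Lcn9, Lcn10, Rnase10, Cst11 and Ovch2 were instead highest in Sham_Veh2, at 0.291 to 16.6 CPM. Motile cilia markers were highest in VX_Veh1, at 1105 CPM. Results below are therefore given with all 16 libraries and, in part, with the 14 other than Sham_Veh4 and Sham_SHU3. Several genes have fold changes from the 16 libraries alone.

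In Sham_Veh4 many proliferation genes were high beside the testis transcripts, unevenly by role, and in Sham_SHU3 fewer were. Sham_Veh4 was the highest of the 16 libraries for 26 of the 40 genes. Its ratio to the mean of the other Sham_Veh libraries had a median of 3.07, was at least 3 for 20 genes and was under 1.5 for 11. The highest ratios belonged to the spindle checkpoint kinases Ttk (13.2 times) and Bub1 (11.4 times), followed by Ccnb2, cyclin B2 (8.58), Foxm1, a transcription factor of mitotic genes (8.57), and Cenpf, a kinetochore protein (8.42). For Mki67 the ratio was 1.10, for Ccna2, cyclin A2, 1.08, for Tyms, thymidylate synthase, 1.00, and for Mcm2 0.784. By role the median ratio was 1.07 for S-phase genes, 7.49 for mitotic cyclins and kinases, 4.43 for chromosome and kinetochore genes and 3.16 for spindle genes. In Sham_SHU3 the median ratio to the other Sham_SHU libraries was 1.10, with 22 genes above 1, led by Bub1 (3.12 times), Ttk (2.71) and Aurka, aurora kinase A (2.61), and with Mki67 at 0.653. By role the median ratio in Sham_SHU3 was 0.776 for S-phase genes, 1.74 for mitotic cyclins and kinases, 1.34 for chromosome and kinetochore genes and 1.06 for spindle genes. Across the 40 genes, which are not independent replicates, the ratios of both libraries were correlated with a Spearman rho of 0.92 and a Pearson r of 0.91 on log2 ratios. The part of testis RNA in these levels was not tested.

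**Figure D1:**
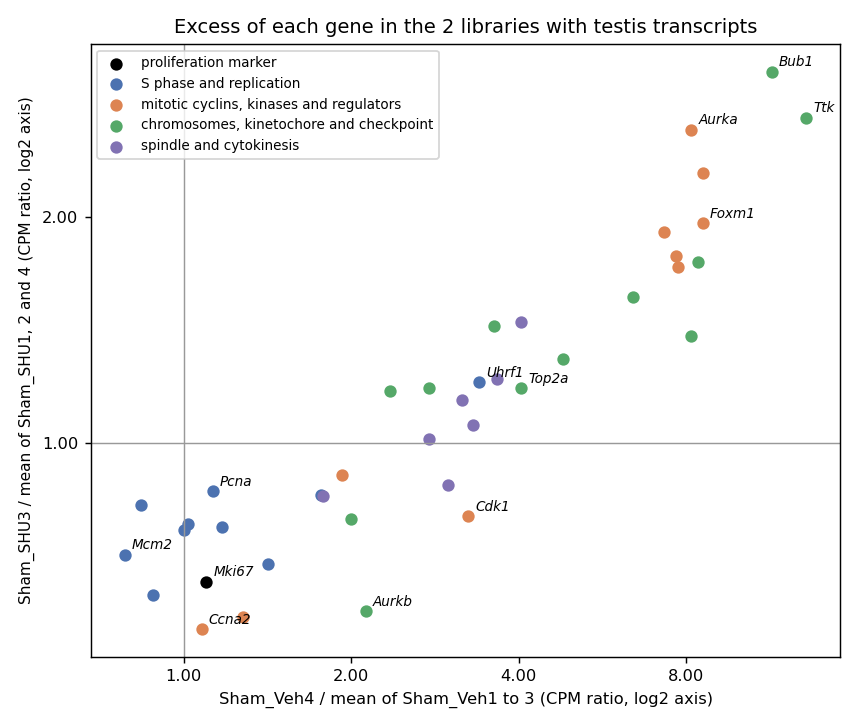
Each point is 1 of the 40 genes, coloured by role. The x axis is the CPM ratio of Sham_Veh4 to the mean of Sham_Veh1 to 3 and the y axis that of Sham_SHU3 to the mean of Sham_SHU1, 2 and 4, both on log2 axes. Genes raised most in one library, such as Ttk and Bub1, were raised most in the other, and Mki67, Ccna2 and Mcm2 sat near or under 1 on both.

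With all 16 libraries, 11 genes were highest in a Sham_SHU library, 3 in a VX_Veh library and none of the 40 in a VX_SHU library, and 33 were lowest in an sDVX library. Among the 14 libraries, 37 of the 40 genes were highest in a Sham_SHU library. The exceptions were the replication licensing genes Mcm2, Mcm6 and Cdt1, which were highest in VX_Veh1. Summed over all 40 genes, the level was 269.9, 226.5, 220.2 and 590.3 CPM in the Sham_Veh libraries, 366.5, 353.5, 369.9 and 346.1 CPM in Sham_SHU, 255.7, 207.9, 231.0 and 209.3 CPM in VX_Veh and 225.8, 220.8, 287.6 and 213.6 CPM in VX_SHU, in replicate order. The Sham_SHU sums were all above those of the other groups except Sham_Veh4.

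**Figure D2:**
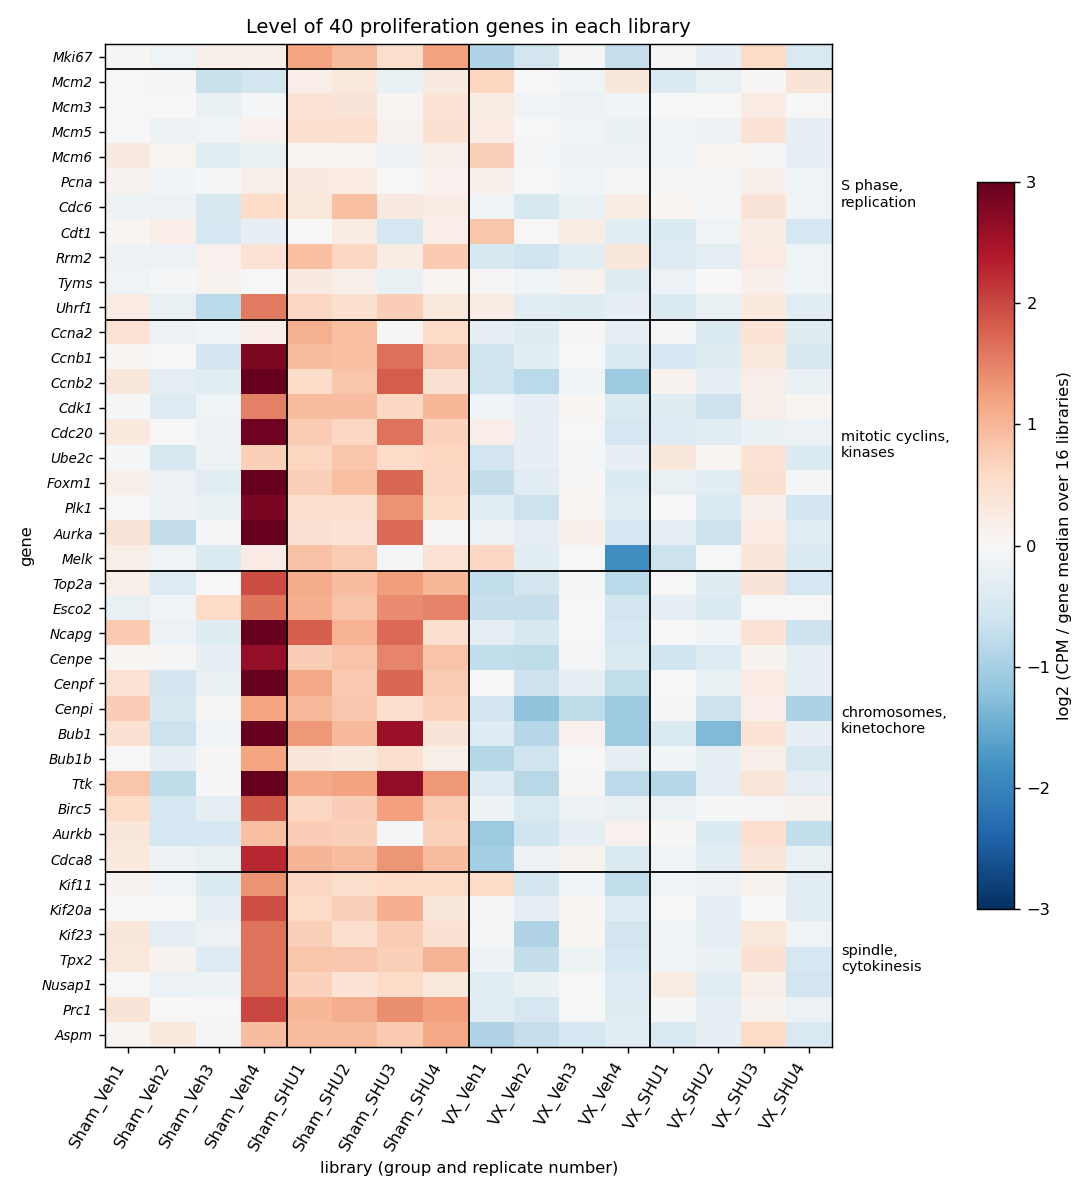
Rows are the 40 genes by role and columns the 16 libraries by group, and the colour is the log2 ratio of a gene's CPM to its median over the 16 libraries. The mitotic rows are darkest red in Sham_Veh4, the Sham_SHU columns are red in most rows, and the S-phase rows vary least.

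The first comparison asks how blocking brain melanocortin receptors alters these genes while the vagus nerve is intact. Mki67, which coats mitotic chromosomes, stood at 11.5, 10.4, 12.6 and 12.6 CPM in the 4 Sham_Veh libraries and at 25.7, 21.95, 16.1 and 26.2 CPM in the 4 Sham_SHU libraries, so the groups did not overlap. The log2 fold change was 0.93 (SE 0.24, adjusted p = 0.0848). Without Sham_Veh4 and Sham_SHU3 it was 1.13 (SE 0.27, adjusted p = 0.0387). In the edgeR test of this comparison Mki67 therefore passed the 0.05 threshold without those libraries and not with all 16. Over all 16 libraries 0 of the 40 genes passed in the edgeR quasi-likelihood test, against 0.114% of all genes tested. DESeq2 called 2 of the 40, against 7.22% of all genes, and limma-voom with sample weights 12, against 23.2%. At an unadjusted p under 0.05 6 genes were higher, against 11% of all genes. The median log2 fold change of the 40 was 0.11, beside -0.06 for all genes tested.

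When Sham_Veh4 and Sham_SHU3 were left out, 9 of the 40 genes rose and 0 fell, against 5.27% of all genes passing and 4.06% passing in the upward direction. The median of the 40 was then 0.81, beside 0.00 for all genes, and 40 of the 40 values were above 0. The 3 Sham_SHU libraries lay wholly above the 3 Sham_Veh libraries for 33 of the 40 genes, against 16.1% of all genes tested, whereas with 4 against 4 libraries this held for 2 genes, Mcm3 and Mki67, against 5.6%. Of the 9 genes, 6 were also among the 12 called by limma-voom in all 16 libraries, and both genes called by DESeq2, Mcm3 and Mki67, were among the 9. These fits share their libraries, so the overlap is not independent support. Spermatid markers in these libraries summed to 239.7, 55.6 and 14.7 CPM under vehicle and 63.5, 227.6 and 48.6 CPM under SHU9119, so they overlapped between the groups. Motile cilia markers summed to 408.6, 395.3 and 7.23 CPM in the same Sham_Veh libraries and to 9.25 to 29.9 CPM in the Sham_SHU ones. The 5 mesothelium markers, all detected, summed to 131.2, 92.1 and 116.1 CPM under vehicle and to 21.1, 48.7 and 63.2 CPM under SHU9119. These sums were lower without overlap. Sham_Veh4 and Sham_SHU3 were at 61.8 and 92.99 CPM. Among the 5 markers only Krt19 separated these libraries by itself, at 14.8 to 50.7 CPM under vehicle and 2.47 to 9.73 CPM under SHU9119. Msln, Upk3b, Lrrn4 and Upk1b each overlapped between the groups. Krt19 was highest in VX_Veh1, at 99.5 CPM, the library with the highest motile cilia sum. The part of these cell types in the result was not tested. Macrophage markers, 14 of 14 detected, summed to 1166, 1058 and 1292 CPM in these Sham_Veh libraries and 970.6, 1098 and 979.3 CPM in these Sham_SHU ones. The stromal progenitor markers summed to 970.2, 958.8 and 1036 and to 986.6, 1060 and 1156 CPM. The endothelial markers summed to 848.4, 995.0 and 1123 and to 1322, 917.8 and 1002 CPM. Sham_Veh4 and Sham_SHU3 were at 1043 and 1143 CPM for macrophage, 907.8 and 995.4 for stromal progenitor and 786.6 and 1048 for endothelial markers.

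Among the mitotic cyclins, kinases and regulators, 3 of 10 rose without the 2 libraries, against 4.06% of all genes. The median log2 fold change of the group went from -0.26 to 0.83. Cdk1, the mitotic kinase, stood at 3.17, 2.51, 3.02 and 9.41 CPM in Sham_Veh and 6.26, 6.26, 5.08 and 6.56 CPM in Sham_SHU. Its log2 fold change was 0.41 (SE 0.36, adjusted p = 0.527), and 1.17 (SE 0.21, adjusted p = 0.0234) without the 2 libraries. Sham_Veh4 was the one Sham_Veh library above the Sham_SHU values. Ccnb1, cyclin B1, showed the same arrangement more strongly, at 2.48, 2.37, 1.61 and 16.7 CPM in Sham_Veh and 4.55, 4.45, 7.54 and 4.19 CPM in Sham_SHU. Its log2 fold change was -0.16 (SE 0.59, adjusted p = 0.889) over 16 libraries and 1.06 (SE 0.26, adjusted p = 0.0428) over 14, a change of sign. Ube2c, the ubiquitin-conjugating enzyme that works with the anaphase-promoting complex, had 3.05, 2.29, 2.89 and 5.28 CPM in Sham_Veh and 5.03, 5.68, 4.74 and 4.99 CPM in Sham_SHU, with 0.60 (SE 0.25, adjusted p = 0.224) and 0.96 (SE 0.23, adjusted p = 0.0368). Ccna2 did not depend on Sham_Veh4, and its Sham_SHU libraries were 9.15, 8.20, 4.52 and 6.66 CPM against 5.91, 3.86, 4.13 and 4.99 in Sham_Veh. It passed in neither fit, with 0.59 (SE 0.24, adjusted p = 0.211) and 0.82 (SE 0.24, adjusted p = 0.0686). Foxm1 had 4.08, 3.28, 2.93 and 29.4 CPM in Sham_Veh and 6.12, 6.92, 12.2 and 5.70 CPM in Sham_SHU. Its values were -0.36 (SE 0.62, adjusted p = 0.752) and 0.90 (SE 0.24, adjusted p = 0.0551), again of opposite sign.

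**Figure D3:**
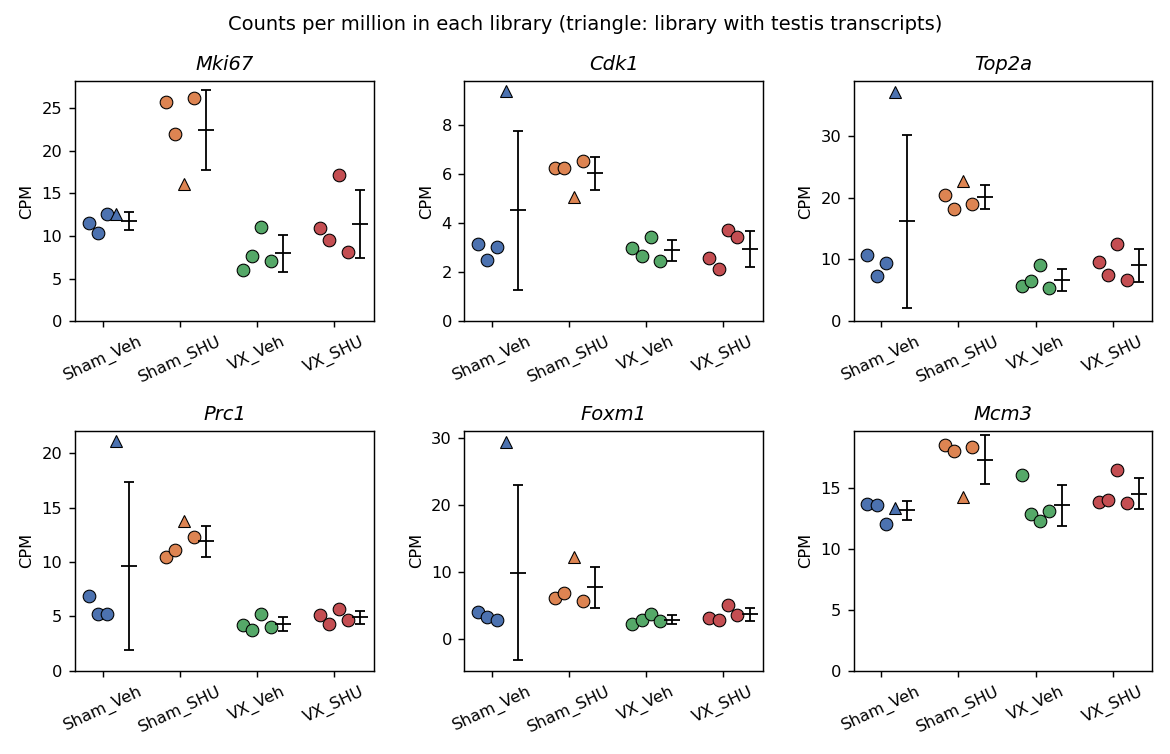
Points are the CPM of single libraries by group, triangles are Sham_Veh4 and Sham_SHU3, and the black mark and bar beside each group are the mean and SD of its 4 libraries. In Cdk1, Top2a, Prc1 and Foxm1 the Sham_Veh triangle lies above every Sham_SHU library, whereas in Mki67 and Mcm3 it lies among the other Sham_Veh libraries.

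Of the 12 chromosome, kinetochore and checkpoint genes, 2 rose without the 2 libraries, Top2a and Cenpe, against 4.06% of all genes. Top2a, the topoisomerase that untangles sister DNA, stood at 10.8, 7.32, 9.46 and 37.1 CPM in Sham_Veh and 20.4, 18.2, 22.7 and 18.96 CPM in Sham_SHU. Its log2 fold change was 0.31 (SE 0.42, adjusted p = 0.684), and 1.10 (SE 0.26, adjusted p = 0.0352) over 14 libraries. Every Sham_SHU library was above 3 of the 4 Sham_Veh libraries. Cenpe, a kinetochore motor, had 4.66, 4.55, 3.76 and 27.7 CPM in Sham_Veh and 7.45, 8.03, 12.2 and 8.02 CPM in Sham_SHU, with -0.19 (SE 0.53, adjusted p = 0.852) and 0.89 (SE 0.23, adjusted p = 0.0448). Esco2, Birc5 and Cenpi passed in neither fit. Esco2, which acetylates cohesin, had 0.725, 0.801, 1.28 and 2.59 and 1.80, 1.52, 2.24 and 2.37 CPM, with 0.56 (SE 0.36, adjusted p = 0.399) and 1.05 (SE 0.31, adjusted p = 0.069). Birc5 (survivin, of the chromosomal passenger complex) had 3.78, 1.75, 2.11 and 9.19 and 3.89, 4.24, 5.92 and 4.29 CPM, with 0.12 (SE 0.40, adjusted p = 0.871) and 0.74 (SE 0.24, adjusted p = 0.0957). The values of Cenpi overlapped between the groups in both fits, at 1.60, 0.692, 0.991 and 2.19 and 1.90, 1.69, 1.36 and 1.56 CPM, with 0.25 (SE 0.35, adjusted p = 0.699) and 0.68 (SE 0.36, adjusted p = 0.241).

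Of the 7 spindle and cytokinesis genes, 2 rose without the 2 libraries, against 4.06% of all genes. Prc1, which bundles the microtubules of the central spindle, stood at 6.87, 5.24, 5.20 and 21.1 CPM in Sham_Veh and 10.5, 11.1, 13.8 and 12.3 CPM in Sham_SHU. Its log2 fold change was 0.31 (SE 0.36, adjusted p = 0.645), and 1.00 (SE 0.17, adjusted p = 0.0198) over 14 libraries. Its adjusted p was then the smallest among the 40 genes. Kif20a, a kinesin of cytokinesis, had 3.82, 3.79, 3.18 and 14.5 CPM in Sham_Veh and 5.64, 6.22, 8.06 and 4.84 CPM in Sham_SHU, with -0.03 (SE 0.40, adjusted p = 0.968) and 0.66 (SE 0.17, adjusted p = 0.0484). The spindle motor Kif11 and the spindle pole gene Aspm passed in neither fit. Kif11 had 5.08, 4.41, 3.55 and 11.99 and 7.35, 6.80, 7.17 and 7.11 CPM, with 0.18 (SE 0.35, adjusted p = 0.774) and 0.74 (SE 0.28, adjusted p = 0.129). Aspm had 1.53, 1.78, 1.40 and 2.80 and 2.85, 2.84, 2.54 and 3.28 CPM, with 0.61 (SE 0.29, adjusted p = 0.258) and 0.96 (SE 0.30, adjusted p = 0.0772).

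For the S-phase genes the median log2 fold change was 0.26 over 16 and 0.51 over 14 libraries. In the latter 1 of the 10 rose, Mcm3, against 4.06% of all genes. Mcm3 stood at 13.7, 13.6, 12.02 and 13.3 CPM in Sham_Veh and 18.5, 18.04, 14.3 and 18.3 CPM in Sham_SHU, so all of the Sham_SHU libraries were higher. Its log2 fold change was 0.39 (SE 0.11, adjusted p = 0.0979) and 0.51 (SE 0.10, adjusted p = 0.0276). Rrm2, the ribonucleotide reductase subunit made for S phase, had 4.54, 4.48, 5.58 and 6.89 and 9.44, 7.78, 5.96 and 8.67 CPM, with 0.57 (SE 0.24, adjusted p = 0.219) and 0.86 (SE 0.25, adjusted p = 0.0664). Pcna had 59.4, 52.4, 53.9 and 62.2 and 66.7, 65.3, 55.3 and 60.5 CPM, with 0.12 (SE 0.08, adjusted p = 0.436) and 0.25 (SE 0.08, adjusted p = 0.084). For Mcm2 the values were 11.8, 11.5, 7.39 and 8.01 and 13.6, 14.7, 10.04 and 14.2 CPM, with 0.44 (SE 0.23, adjusted p = 0.289) and 0.50 (SE 0.24, adjusted p = 0.204). Tyms was the flattest of those named, at 8.59, 9.06, 9.95 and 9.23 and 11.2, 10.4, 8.02 and 9.78 CPM, with 0.10 (SE 0.13, adjusted p = 0.682) and 0.22 (SE 0.14, adjusted p = 0.308).

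After sDVX, SHU9119 was followed by no call among the 40 genes. The edgeR test called 0, against 0.00599% of all genes, DESeq2 0, against 0.324%, and limma-voom 0, against 0.12%, and 1 gene was higher at an unadjusted p under 0.05, against 5.48% of all genes. The median log2 fold change was 0.19, beside -0.02 for all genes. Over 14 libraries the count was 0, against 0% of all genes, and the median was 0.22. Mki67 stood at 6.05, 7.68, 11.1 and 7.04 CPM in VX_Veh and 10.9, 9.51, 17.1 and 8.17 CPM in VX_SHU, and its log2 fold change was 0.52 (SE 0.24, adjusted p = 0.427). The groups overlapped, with VX_Veh3 above 3 of the VX_SHU libraries. Aspm had 0.783, 0.903, 1.02 and 1.15 and 1.06, 1.24, 2.22 and 1.07 CPM, with 0.53 (SE 0.29, adjusted p = 0.458). None of the 40 genes separated the groups, against 2.93% of all genes that were higher without overlap.

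The difference between the SHU9119 responses after sham surgery and after sDVX was tested as an interaction, and 0 of the 40 genes passed in edgeR, in DESeq2 or in limma-voom, against 0%, 0.048% and 0.0779% of all genes. At an unadjusted p under 0.05 there was 1 gene, Mcm2, lower, against 1.43% of all genes. Mcm2 had 18.4, 11.7, 10.8 and 14.8 CPM in VX_Veh and 8.64, 10.1, 12.04 and 15.4 CPM in VX_SHU, and its interaction was -0.71 (SE 0.32, adjusted p = 0.999). For Mcm5 it was -0.43 (SE 0.22, adjusted p = 0.999), and for Mki67 -0.41 (SE 0.33, adjusted p = 0.999). The median over the 40 genes was -0.01, beside -0.01 for all genes tested. Over 14 libraries the count was again 0, against 0% of all genes, the median was -0.61 with 0 of 40 values above 0, and 10 genes were lower at an unadjusted p under 0.05, against 4.14% of all genes. The 9 genes that rose after sham surgery in that fit were thus not shown to respond differently after sDVX.

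Averaged over both surgeries, 1 of the 40 genes rose under SHU9119, Mki67, against 1.87% of all genes passing. DESeq2 called 3 of the 40, against 16.7%, and limma-voom 11, against 23.4%. For Mki67 the log2 fold change was 0.73 (SE 0.17, adjusted p = 0.0489), and all 4 Sham_SHU libraries were above all 4 Sham_Veh libraries while the sDVX groups overlapped. Without the 2 libraries it was 0.84 (SE 0.18, adjusted p = 0.0238). Leaving out 1 library at a time, the call held without Sham_Veh4, Sham_SHU3, VX_Veh4 or VX_SHU4 and was lost without any other, with an adjusted p of up to 0.1. It was also lost with the testis marker sum as a covariate (adjusted p = 0.0557), without the filter on low counts (0.0541) and with the replicate number as a block (0.0776). With both Sham_Veh4 and Sham_SHU3 left out 13 genes rose, against 10.2% of all genes passing and 7.32% passing upward, and the median was 0.50 beside 0.01 for all genes. This comparison shares all of its libraries with those above.

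Vagotomy was then compared with sham surgery, first under vehicle. Here 0 of the 40 genes passed in edgeR, DESeq2 or limma-voom, against 0%, 0.0659% and 0.024% of all genes. At an unadjusted p under 0.05, 23 were lower and 1 was higher, against 6.36% lower and 1.64% higher among all genes. The median log2 fold change was -0.89, beside 0.01 for all genes. It was -0.17 without the 2 libraries, when 0 genes passed, against 0% of all genes, and 3 genes were lower at that level against 2.23% of all genes. Aspm and Cenpi were the 2 genes whose VX_Veh libraries all lay below all Sham_Veh libraries, against 2.16% of all genes. Cenpi had 0.653, 0.417, 0.564 and 0.461 CPM in VX_Veh, with -1.38 (SE 0.36, adjusted p = 0.608), and -1.04 (SE 0.34, adjusted p = 0.963) without the 2 libraries. Aspm had -0.96 (SE 0.29, adjusted p = 0.608) and -0.68 (SE 0.28, adjusted p = 0.963).

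Under SHU9119, the 40 genes were lower after sDVX than after sham surgery in 40 of 40 fitted values, with a median log2 fold change of -0.88, beside -0.01 for all genes. None passed in edgeR over 16 libraries, against 0% of all genes, and 19 were lower at an unadjusted p under 0.05, against 5.54%. DESeq2 called 1 gene, against 0.557%, and limma-voom 15, against 4.67%. The 4 VX_SHU libraries lay wholly below the 4 Sham_SHU libraries for 24 genes, against 2.44% of all genes, and for 31 genes without Sham_SHU3, against 7.13%. Over the 14 libraries 1 gene fell, Prc1, against 0.024% of all genes passing, the median was -0.76, and 32 genes were lower at an unadjusted p under 0.05, against 8.35%. This comparison shares the Sham_SHU libraries with that of SHU9119 after sham surgery.

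Prc1 had 5.10, 4.32, 5.68 and 4.66 CPM in VX_SHU, all below the 4 Sham_SHU libraries, with -1.27 (SE 0.37, adjusted p = 0.432) and, over 14 libraries, -1.18 (SE 0.16, adjusted p = 0.0462). VX_Veh was at 4.22, 3.72, 5.26 and 4.08 CPM. Mki67 had -0.97 (SE 0.24, adjusted p = 0.376) and, over 14 libraries, -1.10 (adjusted p = 0.125). Its VX_SHU3 library, at 17.1 CPM, was above Sham_SHU3. The fold changes that follow are from 16 libraries. Esco2 had 0.709, 0.621, 0.854 and 0.840 CPM in VX_SHU and -1.39 (SE 0.37, adjusted p = 0.405). The mitotic genes Cdk1, Ccnb1 and Top2a were also separated. Cdk1 stood at 2.57, 2.14, 3.71 and 3.43 CPM in VX_SHU, with -1.02 (SE 0.36, adjusted p = 0.445). Ccnb1 stood at 1.68, 1.86, 2.95 and 1.72 CPM, with -1.33 (SE 0.60, adjusted p = 0.466). Top2a stood at 9.53, 7.43, 12.5 and 6.64 CPM, with -1.15 (SE 0.42, adjusted p = 0.445). Smaller values came from S phase, where the group's median was -0.22, against -1.02 for mitotic cyclins and kinases, -1.19 for chromosome and kinetochore genes and -0.85 for spindle genes. Those medians are from 16 libraries. Over 14 libraries they were -0.32, -0.78, -1.07 and -0.69 in the same order, so S phase and mitotic cyclins and kinases lay closer together.

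Among the remaining named genes under SHU9119, Aspm had -1.04 (SE 0.29, adjusted p = 0.432) and Cenpi -1.04 (SE 0.36, adjusted p = 0.445). Foxm1 had 3.15, 2.92, 5.08 and 3.63 CPM in VX_SHU and -1.07 (SE 0.63, adjusted p = 0.516). Ccna2 had 4.25, 3.29, 5.85 and 3.40 CPM and -0.76 (SE 0.24, adjusted p = 0.441). Birc5 and Kif11 had -0.87 (SE 0.41, adjusted p = 0.468) and -0.71 (SE 0.35, adjusted p = 0.475). Among S-phase genes Rrm2 had 3.86, 4.16, 5.98 and 4.62 CPM and -0.77 (SE 0.24, adjusted p = 0.441). Pcna, Mcm2 and Tyms had small fold changes, with -0.17 (SE 0.08, adjusted p = 0.474), -0.19 (SE 0.23, adjusted p = 0.756) and -0.11 (SE 0.13, adjusted p = 0.76). Averaged over both infusions, sDVX gave 0 calls among the 40 in edgeR, against 0% of all genes, with 31 lower at an unadjusted p under 0.05, against 10.8%, and a median of -0.85. DESeq2 called 11 genes, against 2.45%, and limma-voom 7, against 0.671%, and without the 2 libraries edgeR called 0, against 0% of all genes, with a median of -0.48.

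**Figure D4:**
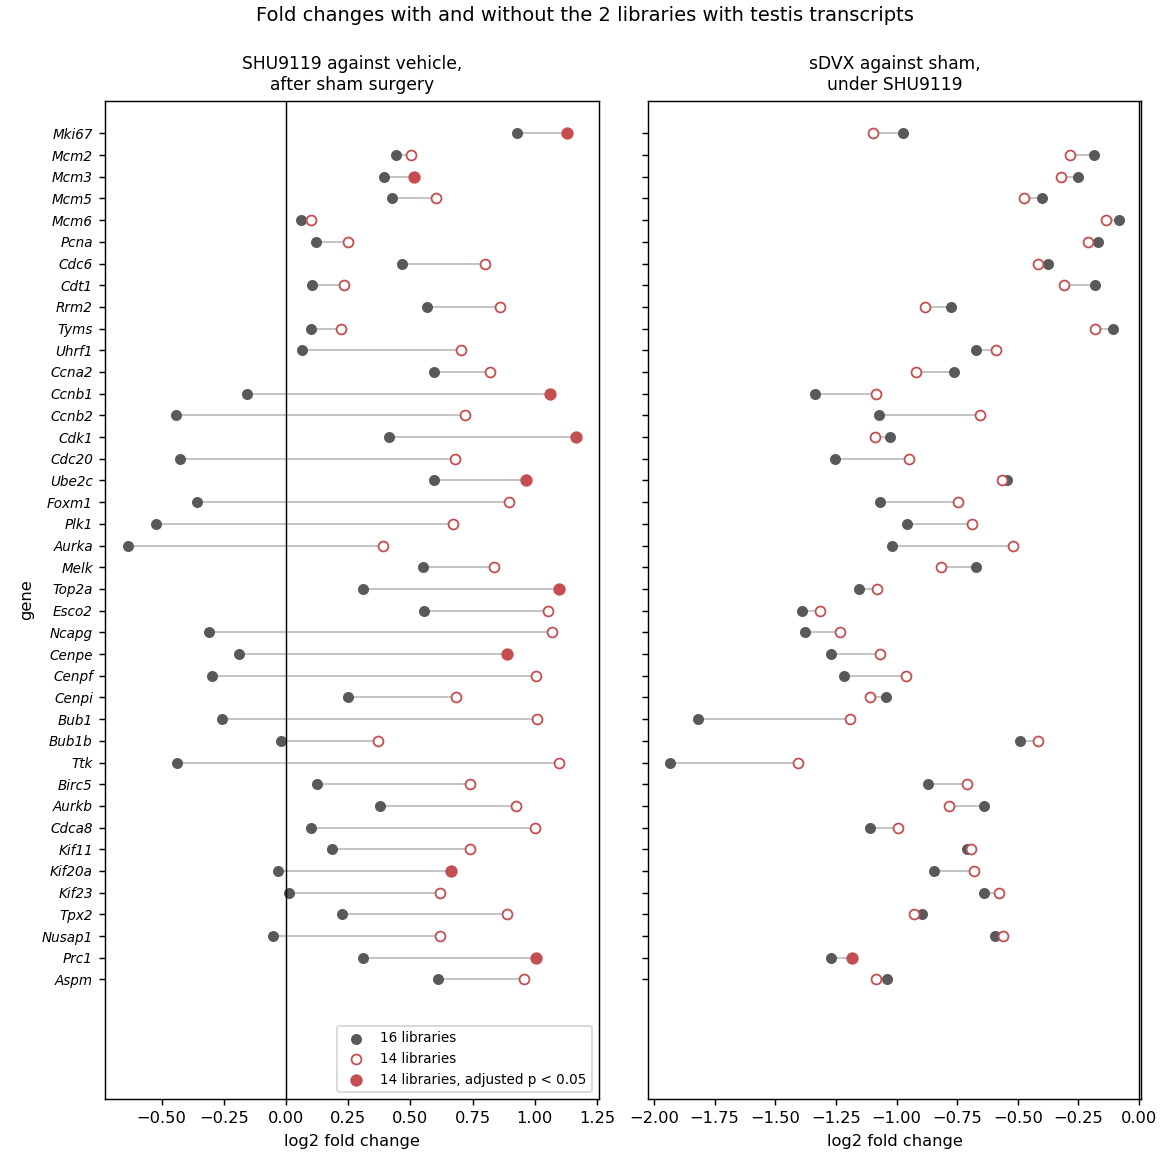
Each row is 1 gene and the x axis is its log2 fold change, for SHU9119 against vehicle after sham surgery and for sDVX against sham under SHU9119. Grey points use 16 libraries, where no gene passed, and red ones 14, with the red points filled where the adjusted p was under 0.05. On the left 14 of the 40 genes, none of them of S phase, lie below 0 with 16 libraries, down to -0.64. With 14 libraries all 40 lie above 0 there. On the right all 40 stay below 0 in both fits.

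Other genes of the pathway were counted from lists. With all 16 libraries, none of the 16 G1 entry genes (the D and E cyclins, their kinases and the E2F factors), 13 of 14 tested cell cycle brakes, 25 further replication genes and 40 further mitosis genes passed in the 4 comparisons between single groups in edgeR. For SHU9119 after sham surgery, 4 G1 entry genes, 4 brakes, 1 replication gene and 4 mitosis genes were higher at an unadjusted p under 0.05, against 11% of all genes. Averaged over both surgeries, Cdkn1b, the CDK inhibitor p27, fell by 0.28 on the log2 scale (adjusted p = 0.0384), and Iqgap3, a scaffold protein, rose by 0.98 (adjusted p = 0.0461). They were the only calls in the 4 lists, against 1.87% of all genes. Over 14 libraries the same comparison called 2 of 16 G1 entry genes, 3 of 13 brakes, 3 of 25 replication genes and 10 of 40 mitosis genes. Of all genes 10.2% then passed. Cdkn1b averaged 60.01 ± 3.21 CPM in Sham_Veh, 46.9 ± 4.4 in Sham_SHU, 64.2 ± 6.4 in VX_Veh and 55.7 ± 2.5 in VX_SHU (SD, n = 4). In the fit of 14 libraries, SHU9119 after sham surgery was followed by 0 calls among 16 G1 entry genes, 2 brakes higher (Ccng1, cyclin G1, and Rb1, the retinoblastoma protein) and 1 lower (Cdkn1b), 1 of 25 replication genes higher (Tk1, thymidine kinase) and 6 of 40 mitosis genes higher, against 4.06% of all genes passing upward. The median log2 fold change of the further mitosis genes was then 0.56, and of the further replication genes 0.23, beside 0.00 for all genes. For sDVX under SHU9119 none of the 4 lists had a call in either fit.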

How the data were processed

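PolyA RNA of gonadal fat was sequenced in 16 libraries. The authors deposited whole-number read counts per gene, named by NCBI gene number; bcl2fastq, TopHat, edgeR and the mm10 build were used, per the submitters' processing notes. How reads were counted, on which annotation and whether by strand is not given in the sources used here. Of 24454 genes, 24374 were matched to RefSeq symbols. The 80 others held 0.557% to 1.24% of a library's counts.

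Counts were fitted with the quasi-likelihood test of edgeR 4.0.16 in R 4.3.3 (filterByExpr by group, TMM, robust dispersion, 12 residual degrees of freedom), with Benjamini-Hochberg adjusted p over all 16682 genes tested. Each SE was obtained by dividing the fitted change by the square root of its F statistic. None of the 24 replicate pairs was a copy (chi-square per degree of freedom 11.8 to 203.9). Alternatives used DESeq2 1.42.0, limma 3.58.1 and fewer libraries. The test was also run on simulated data.

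The members, gene lists and roles were chosen with earlier results of these data known. By rule, the members named with a test are landmarks of each role, members past the threshold and the 2 members with the smallest p per comparison. Cenpe, Kif20a and Ube2c were added after their values were seen. Ttk, Bub1, Ccnb2, Cenpf and Aurka were named for their high ratios, and Mcm6 and Cdt1 for their highest library. These too were picked by their values.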

Additional observations from a re-analysis of the deposited data

Results flagged for a closer look

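Within each group of 4 libraries, a value was singled out where its distance from the nearest other value, divided by the group's range, exceeded the 95% critical value of Dixon's test for 4 values. Of 104 groups of values checked (21 genes and 5 sums), 22 values were singled out, and chance alone does this in about 1 in 20 groups. The groups are not independent, since the genes share libraries.

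In Sham_Veh4, 11 values were singled out as high. They were Ccnb1 at 16.7 CPM, Cdk1 at 9.41, Cenpe at 27.7, Foxm1 at 29.4, Top2a at 37.1, Kif20a at 14.5 and Prc1 at 21.1. The sums there were 150.9 CPM for mitotic cyclins and kinases, 181.6 for chromosome and kinetochore genes, 89.8 for spindle genes and 590.3 for all 40. In Sham_SHU3, Ccnb1 was high at 7.54 CPM and Cenpe at 12.2, and Mcm3 was low at 14.3. Both libraries held the highest testis marker sums.

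In VX_SHU3, 5 values were singled out as high: Mcm3 at 16.4 CPM, Mcm5 at 11.8, Ccnb1 at 2.95, Aspm at 2.22 and the sum of all 40 genes at 287.6. In VX_Veh3 Esco2 stood out at 0.847 CPM and the chromosome and kinetochore sum at 35.1. In VX_Veh1 the sum of the S-phase genes stood out at 173.6 CPM.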

How the results depend on the processing

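The number of the 40 genes past the threshold was moved by 3 settings more than others. Leaving out Sham_Veh4 and Sham_SHU3 gave 9 genes for SHU9119 after sham surgery, against 5.27% of all genes. It gave 1 for sDVX under SHU9119, against 0.024%, and 13 for SHU9119 averaged over both surgeries, against 10.2%. Limma-voom with sample weights had its lowest weights at 0.253 for VX_Veh1, 0.306 for Sham_Veh4 and 0.342 for Sham_Veh3. It gave 12, 15 and 11 genes, against 23.2%, 4.67% and 23.4% of all genes. For sDVX averaged over both infusions it gave 7, against 0.671%. The DESeq2 Wald test gave 2, 1, 3 and 11, against 7.22%, 0.557%, 16.7% and 2.45%. For SHU9119 averaged over both surgeries the count was 0 without a filter on low counts and 0 with the testis marker sum as a covariate. The median log2 fold change for SHU9119 after sham surgery became 0.59 with limma-voom and 0.81 without the 2 libraries. For sDVX under vehicle it became -0.37 and -0.17, and for the interaction -0.51 and -0.61. In SHU9119 after sham surgery, 4 named genes changed sign. With limma-voom Ccnb1 was 0.81, Foxm1 0.69, Cenpe 0.69 and Kif20a 0.48. Without the 2 libraries they were 1.06, 0.90, 0.89 and 0.66, and with the covariate 0.45, 0.28, 0.31 and 0.22. The cause was not tested.

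Leaving out 1 library at a time, counts ranged from 0 to 2 for SHU9119 after sham surgery (2 without Sham_SHU3 or VX_Veh1, 1 without VX_SHU3), 0 to 1 for sDVX under SHU9119 (1 without Sham_Veh4) and 0 to 4 for SHU9119 averaged (4 without Sham_Veh4). Medians ranged from -0.01 to 0.86 for SHU9119 after sham surgery, -1.07 to -0.17 for sDVX under vehicle and -0.63 to 0.22 for the interaction, the 0.86, -0.17 and -0.63 coming without Sham_Veh4. In SHU9119 after sham surgery, Ccnb1 ranged from -0.46 to 1.30, Foxm1 from -0.70 to 1.20, Cenpe from -0.46 to 1.08, Kif20a from -0.25 to 0.81, Birc5 from -0.12 to 0.88 and Kif11 from -0.01 to 0.74. Over all alternatives, 140 counts and 163 medians were classed as the same, and 32 counts and 9 medians as moved. Of the values of named genes, 1021 were classed as the same, 25 as reversed, 35 as stronger and 15 as weaker.

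Replicate numbers did not pair the libraries: deviations of same-numbered libraries correlated between -0.689 and 0.676, over 0.1 in 13 of 24 pairs, and 5 libraries correlated best with their own number. With the number as a block, the count for SHU9119 averaged was 0, and Ccnb1 was 0.19, Foxm1 0.05, Cenpe 0.13 and Kif20a 0.11 after sham surgery. The low counts of these genes, down to 10, limit the precision of single values.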
